A study of Homo sapiens with 12 samples.

Results

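The 10 amino acid transporters described here were taken from the count tables by gene symbol: SLC7A11, SLC7A5, SLC7A6, SLC3A2, SLC1A5, SLC1A4, SLC38A1, SLC38A2, SLC7A1 and SLC43A2. All 10 were listed both among the 17099 genes of the OCI-AML2 table and among the 16820 genes of the MOLM-13 table, which had 15615 genes in common. OCI-AML2 and MOLM-13 are human cell lines from acute myeloid leukaemia. Each was cultured for 36 h with vehicle (DMSO) or with selinexor, an inhibitor of the nuclear export receptor XPO1, at 200 nM for OCI-AML2 and 75 nM for MOLM-13. Whole-cell RNA was sequenced with paired ends from 3 biologically independent cultures in each of the 4 groups. Since each line had its own dose, a difference between the lines in the response and a difference between the doses cannot be told apart.

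Amino acids cross the plasma membrane through several families of carriers. The SLC7 light chains LAT1, y+LAT2 and xCT are exchangers that reach the cell surface bound to the heavy chain SLC3A2, also known as CD98. SLC1A5 and SLC1A4 exchange small neutral amino acids, glutamine among them for SLC1A5, while SLC38A1 and SLC38A2 use the sodium gradient to load the cell. SLC7A1 imports arginine and other cationic amino acids, and SLC43A2 lets large neutral amino acids cross by facilitated diffusion. Proliferating blood cells, leukaemic ones included, depend on such uptake, and several of these genes are known targets of the amino acid response factor ATF4.

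Promoters are shown because that factor and its partners read a short composite element. A further reason is that the members found to hold its core did not all move the same way in OCI-AML2. In MOLM-13 all of them fell. A part of ATF4 in these changes was not tested. RefSeq promoters on GRCh38.p14, from 250 bases before to 50 after the start of the transcript, were matched for 9 of the 10 members, all but SLC7A11. Both strands were searched for TGATGNAA, the core of the amino acid response element, which 3.62% of 35116 promoters of 300 bases held. SLC1A5, SLC1A4 and SLC7A1 had this core. Their windows are chr19:46784765-46785064 on the minus strand, chr2:64989149-64989448 on the plus strand and chr13:29595639-29595938 on the minus strand. The first and second of these lie inside the annotated span of the gene. The sequences run 5′ to 3′, and capitals mark motif matches, which in SLC7A1 include an antioxidant response core in addition to TGATGAAA.
SLC1A5: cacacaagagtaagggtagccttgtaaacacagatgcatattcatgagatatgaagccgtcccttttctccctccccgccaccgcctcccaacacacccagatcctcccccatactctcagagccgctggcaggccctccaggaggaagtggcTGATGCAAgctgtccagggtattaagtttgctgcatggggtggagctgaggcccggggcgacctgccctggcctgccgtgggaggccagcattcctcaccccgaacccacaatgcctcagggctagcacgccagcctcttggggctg
SLC1A4: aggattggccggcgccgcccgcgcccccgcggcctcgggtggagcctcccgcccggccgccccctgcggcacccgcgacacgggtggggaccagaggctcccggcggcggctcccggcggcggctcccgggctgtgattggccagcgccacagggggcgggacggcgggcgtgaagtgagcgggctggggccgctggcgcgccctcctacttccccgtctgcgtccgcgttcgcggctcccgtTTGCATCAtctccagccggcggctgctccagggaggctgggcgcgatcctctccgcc
SLC7A1: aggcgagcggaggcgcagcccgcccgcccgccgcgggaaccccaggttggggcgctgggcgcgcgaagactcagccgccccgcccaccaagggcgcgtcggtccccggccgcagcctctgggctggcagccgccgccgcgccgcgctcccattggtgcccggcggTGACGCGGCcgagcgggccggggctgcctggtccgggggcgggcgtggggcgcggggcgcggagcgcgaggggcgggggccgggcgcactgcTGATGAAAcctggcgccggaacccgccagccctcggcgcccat
Counted from the transcript start as base 1, with no base 0, the match covered bases -97 to -90 in SLC1A5, bases -7 to 1 in SLC1A4, where it lies on the opposite strand, and bases 8 to 15 in SLC7A1. The antioxidant response core TGACNNNGC, found in 13.3% of all promoters, matched in SLC7A1, SLC7A5 and SLC7A6, and the E-box CACGTG, found in 7.26%, matched in SLC7A5. No match overlapped another. SLC7A5, whose promoter at chr16:87869458-87869757 on the minus strand held both of these motifs, is shown for comparison as the member with the highest CPM in all 4 groups.
SLC7A5: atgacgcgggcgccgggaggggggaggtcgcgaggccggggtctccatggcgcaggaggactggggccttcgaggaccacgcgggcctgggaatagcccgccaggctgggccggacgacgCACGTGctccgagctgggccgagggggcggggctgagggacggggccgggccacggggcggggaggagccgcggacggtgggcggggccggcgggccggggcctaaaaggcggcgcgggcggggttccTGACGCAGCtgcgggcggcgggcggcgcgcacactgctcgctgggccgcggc
None of the 3 motifs matched in the windows of SLC3A2, SLC38A1, SLC38A2 or SLC43A2. Those of SLC3A2, SLC38A1 and SLC43A2 also lie inside the annotated span of the gene. Only the window of 300 bases was searched, so an element elsewhere in or near a gene would be missed. A match is a run of letters and was not tested as a binding site.

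The libraries held 8650518 to 11769061 counted reads in OCI-AML2 and 8114892 to 9711704 in MOLM-13, and replicate libraries correlated across genes with Spearman's rho of 0.986 to 0.990. Of 9 myeloid markers, 8 reached 1 CPM (read counts scaled to a common library total) in every group. In OCI-AML2 their summed level was 2929 to 3132 CPM with vehicle against 10870 to 11180 CPM with selinexor, and MOLM-13 had 1086 to 1103 CPM against 2573 to 2617 CPM. None of 5 T cell markers reached 1 CPM in any group, and CD3E and CD2 were at 0 in every library. B cell markers (4, MS4A1 at 0) summed to at most 8.554 CPM. The 5 markers of fibroblasts and epithelium summed to 12.28 to 12.74 CPM with vehicle and 32.33 to 41.41 CPM with selinexor in MOLM-13, with EPCAM at 0 in all groups, and to at most 1.19 CPM in OCI-AML2. The part of these marker shifts in the transporter results was not tested.

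In OCI-AML2, 4 of the 10 transporters rose with selinexor (SLC7A11, SLC1A4, SLC38A2 and SLC43A2) and the other 6 fell. In MOLM-13, 2 rose (SLC38A2 and SLC43A2), 7 fell, and SLC7A6 did not pass the test. The changes ran from a 13.8-fold rise of SLC43A2 in OCI-AML2 to a 2.48-fold fall of SLC1A5 in MOLM-13. A gene was called at an adjusted p under 0.05 (quasi-likelihood test of edgeR, Benjamini-Hochberg adjustment over all genes tested). That test called 63.1% of 12086 genes in OCI-AML2 and 63.6% of 11807 in MOLM-13, so being called sets no member apart. Vehicle and selinexor libraries did not overlap for 10 of 10 members in OCI-AML2, against 66.3% of all genes, and for 8 of 10 in MOLM-13, against 65.5%. Split by direction, 31.3% of all genes rose and 31.8% fell in OCI-AML2, and 31.8% rose and 31.8% fell in MOLM-13, so the falls of 7 members there stand beside a background of equal shares. At least 2-fold rises were called for 2 members in OCI-AML2 and 1 in MOLM-13 (7.23% and 7.27% of genes), and at least 2-fold falls for 1 member in each (2.85% and 3.57%). The median log2 fold change of the 10 was -0.27 in OCI-AML2 and -0.47 in MOLM-13, beside -0.00 and 0.01 over all genes tested. CPM here are scaled by the trimmed mean of M values (TMM) over the 12 libraries, so a value is a share of RNA, and in bulk libraries fewer cells of a kind and less RNA per cell cannot be told apart.

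**Figure D1:**
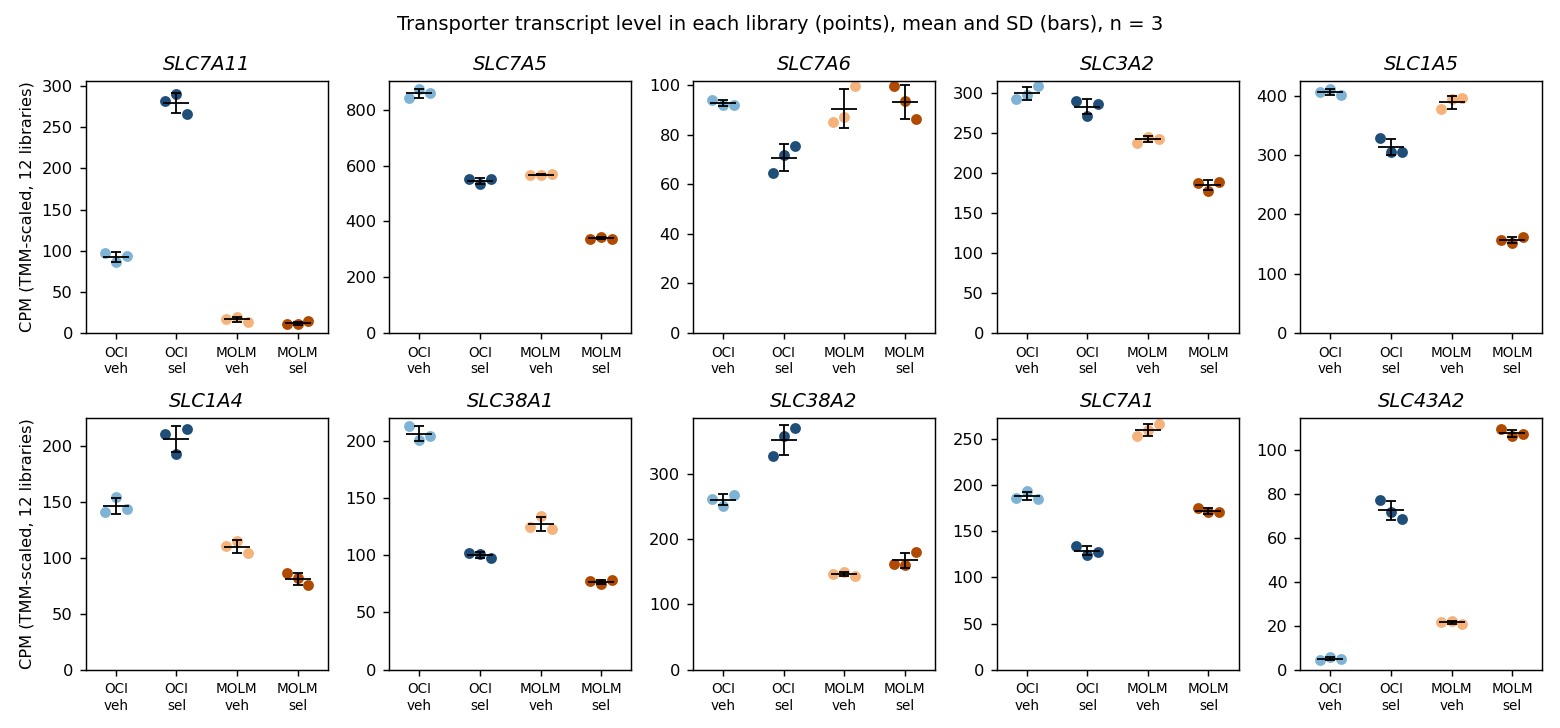
Expression of the 10 transporters in CPM on linear axes from 0, 1 panel per gene and 1 point per library, with the mean and SD as black bars, for OCI-AML2 (OCI) and MOLM-13 (MOLM) with vehicle (veh) or selinexor (sel), 3 libraries each. SLC43A2 goes from 4.25 to 5.79 CPM to 68.8 to 77.4 CPM in OCI-AML2, and SLC7A11 is far higher with selinexor in OCI-AML2 and not in MOLM-13.

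The transporter with the largest change was SLC43A2 (LAT4, chr17:1569267-1628886, minus strand, GRCh38), the facilitative carrier of leucine, phenylalanine and other large neutral amino acids. Its level in the 3 OCI-AML2 vehicle libraries was 4.25, 5.79 and 5.10 CPM, from 42, 71 and 58 counts, and in the selinexor libraries it was 77.4, 71.7 and 68.8 CPM. MOLM-13 had 21.8, 22.3 and 20.8 CPM with vehicle and 109.5, 106 and 107 CPM with selinexor. Every selinexor library of either line lay above every vehicle library of both lines. The log2 fold change was 3.79 ± 0.10 (SE; edgeR adjusted p = 1.24e-30) in OCI-AML2, the rank 17 rise among 12086 genes. In MOLM-13 it was 2.32 ± 0.073 (edgeR adjusted p = 3.38e-51), a 5.00-fold rise and rank 90 among 11807 genes. The rise was smaller in MOLM-13 by 1.51 ± 0.14 on the log2 scale (edgeR interaction term, adjusted p = 1.44e-15), from a vehicle level 4.23-fold higher than in OCI-AML2. With selinexor, MOLM-13 still had the higher level, although the smaller fold.

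SLC7A5 (LAT1, chr16:87830023-87869488, minus strand), the exchanger that brings in leucine and other large neutral amino acids, went the other way. Its OCI-AML2 vehicle libraries had 843, 876 and 859 CPM and the selinexor libraries 551, 534 and 551 CPM. In MOLM-13 they were 567, 568 and 569 CPM, then 338, 344 and 337 CPM. The groups did not overlap in either line, and the log2 fold changes were alike in size: -0.70 ± 0.038 in OCI-AML2 (edgeR adjusted p = 3.9e-20) and -0.73 ± 0.034 in MOLM-13 (edgeR adjusted p = 5.48e-37). The interaction term of the separate fit over 12 libraries was -0.08 with a 95% interval of -0.19 to 0.02 (edgeR adjusted p = 0.228). With SLC43A2 rising as SLC7A5 fell, the ratio of SLC7A5 to SLC43A2 counts went from 173 ± 24 (SD, n = 3) to 7.52 ± 0.45 in OCI-AML2 and from 26.3 ± 0.96 to 3.16 ± 0.074 in MOLM-13. Both carry leucine, and SLC7A5 remained the gene with more counts in every library.

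Among the members, the response of SLC7A11 differed most between the lines. It encodes xCT (chr4:138164097-138242349, minus strand), the light chain that takes up cystine in exchange for glutamate and so feeds glutathione synthesis. OCI-AML2 had 97.8, 86.6 and 93.1 CPM with vehicle and 282, 291 and 267 CPM with selinexor. MOLM-13 had 17.004, 19.6 and 13.7 CPM with vehicle and 10.8, 10.5 and 14.04 CPM with selinexor. The OCI-AML2 groups were far apart, whereas in MOLM-13 one selinexor library lay above the lowest vehicle library. The log2 fold change was 1.56 ± 0.049 in OCI-AML2 (edgeR adjusted p = 3.54e-28) and -0.51 ± 0.14 in MOLM-13 (edgeR adjusted p = 0.000696), where the authors' deposited table gives -0.52 with an adjusted p of 0.01585 once its sign is turned to selinexor over vehicle. The interaction term was -2.12 ± 0.13 (edgeR adjusted p = 1.49e-18), with rank 85 among the 12530 genes by how far the MOLM-13 change lay below that of OCI-AML2. With vehicle the gene was 5.51-fold lower in MOLM-13 (log2 difference -2.46 ± 0.082, edgeR adjusted p = 1.08e-31). SLC7A11 shares 865 exonic bases with SLC7A11-AS1 on the other strand, whose own counts in OCI-AML2 were 87 to 142 with vehicle and 209 to 248 with selinexor, while MOLM-13 had 12 to 22 and then 8 to 12. The libraries kept no strand, so reads from the shared bases cannot be told apart.

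SLC7A6 (y+LAT2, chr16:68264516-68301823, plus strand), a light chain that exchanges cationic for neutral amino acids, fell in OCI-AML2 and did not pass the test in MOLM-13. In OCI-AML2 the vehicle libraries had 94.1, 91.9 and 92.1 CPM and the selinexor libraries 64.6, 71.9 and 75.2 CPM, with no overlap (log2 fold change -0.43 ± 0.061, edgeR adjusted p = 4.39e-08). In MOLM-13 the values overlapped, at 85.0, 86.9 and 99.5 CPM with vehicle and 99.5, 93.6 and 86.1 CPM with selinexor. The log2 fold change there was 0.05 with a 95% interval of -0.07 to 0.16 (edgeR adjusted p = 0.509). The lines differed in this response by 0.43 ± 0.087 (edgeR interaction term, adjusted p = 4.96e-05). SLC7A6OS overlaps 3371 exonic bases of the gene on the other strand, and its counts in OCI-AML2 were 638 to 820 with vehicle and 430 to 468 with selinexor, while MOLM-13 had 531 to 626 and then 506 to 618.

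The heavy chain SLC3A2 (chr11:62856102-62888875, plus strand), which carries all 3 of these light chains to the membrane, changed less than SLC7A5 did. OCI-AML2 had 293, 298 and 309 CPM with vehicle and 290.5, 272 and 287 CPM with selinexor, and the log2 fold change was -0.13 ± 0.041 (edgeR adjusted p = 0.00718). MOLM-13 had 238, 245 and 243 CPM and then 188, 178 and 189 CPM, a log2 fold change of -0.39 ± 0.041 (edgeR adjusted p = 2.42e-14). The groups did not overlap in either line, but in OCI-AML2 the gap was narrower than the spread within the groups. The OCI-AML2 call was lost with upper-quartile scaling (-0.07, edgeR adjusted p = 0.128), in a fit of all 12 libraries (-0.08, edgeR adjusted p = 0.0677) and without selinexor library 2 (-0.10, edgeR adjusted p = 0.076). The fall was larger in MOLM-13 by 0.31 ± 0.059 (edgeR interaction term, adjusted p = 1.55e-05).

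Per kilobase of merged exons, the mix of light chain transcripts shifted with selinexor in OCI-AML2. SLC7A11 made up 4.73% ± 0.35 (SD, n = 3) of the 3 light chains with vehicle and 18.9% ± 0.93 with selinexor, and the share of SLC7A5 went from 89.2% ± 0.50 to 75.0% ± 0.90. In MOLM-13 SLC7A11 stood at 1.31% ± 0.24 and 1.43% ± 0.26, groups that overlapped, while SLC7A5 went from 89.8% ± 0.52 to 84.2% ± 0.72 and SLC7A6 from 8.94% ± 0.71 to 14.4% ± 0.91. The summed light chains per SLC3A2 went from 3.51 ± 0.092 to 2.80 ± 0.081 in OCI-AML2 and from 2.85 ± 0.035 to 2.39 ± 0.11 in MOLM-13. That ratio depends on the length given to SLC3A2, 5178 bases of merged exons or 2161 bases of its principal transcript. With principal transcripts it went from 1.54 ± 0.041 to 1.22 ± 0.035 and from 1.26 ± 0.016 to 1.06 ± 0.048, lower with selinexor by either length.

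**Figure D2:**
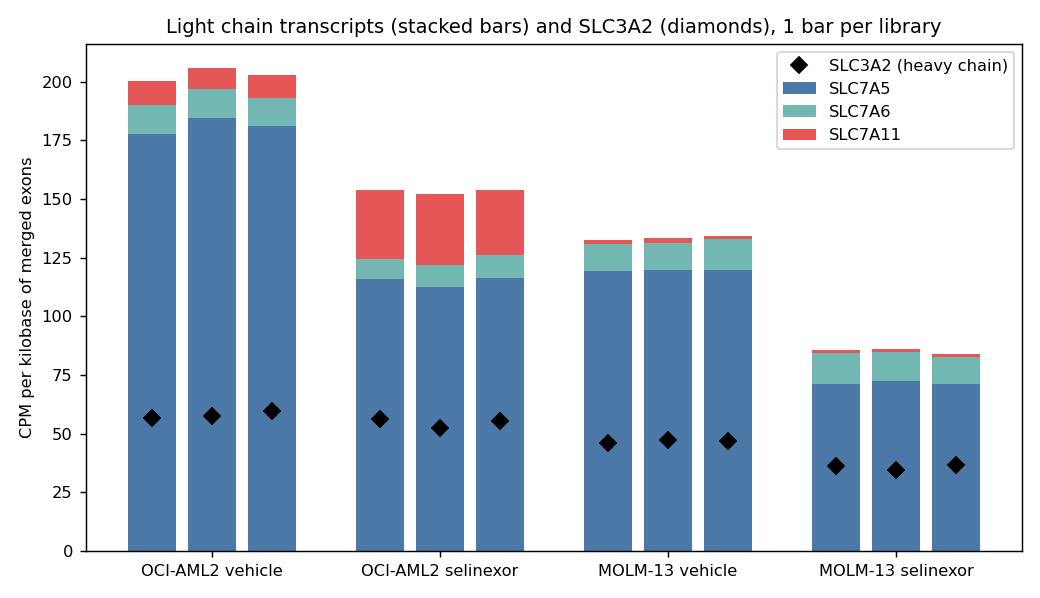
Levels of the light chain transcripts SLC7A5, SLC7A6 and SLC7A11 in CPM per kilobase of merged exons, as stacked bars that start at 0, 1 bar per library in the 4 groups, with SLC3A2 on the same scale as black diamonds. SLC7A11 makes up 18.9% of the bar on average in OCI-AML2 with selinexor and at most 5.06% of any bar of the other 3 groups.

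SLC1A5 (ASCT2, chr19:46774883-46788594, minus strand), an exchanger through which cells take up glutamine, was the member that fell most in MOLM-13. Levels there were 377, 394 and 396 CPM with vehicle and 157, 151 and 162 CPM with selinexor, a log2 fold change of -1.31 ± 0.040 or a 2.48-fold fall (edgeR adjusted p = 1.99e-52). OCI-AML2 had 406, 412 and 401 CPM with vehicle and reached 329, 306 and 305 CPM (log2 fold change -0.42 ± 0.040, edgeR adjusted p = 3.29e-12). No group overlapped its control. The vehicle levels differed by -0.06 on the log2 scale (95% interval -0.14 to 0.02, edgeR adjusted p = 0.145). That difference passed the test without OCI-AML2 vehicle library 1 (-0.10), 2 (-0.09) or 3 (-0.11) or MOLM-13 vehicle library 2 (-0.11). The the responses differed by -0.94 ± 0.058 (edgeR interaction term, adjusted p = 4.17e-25).

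Its relative SLC1A4 (ASCT1, chr2:64988477-65023865, plus strand), an exchanger of serine, alanine and other small neutral amino acids, changed in opposite directions. In OCI-AML2 it rose from 141, 154 and 144 CPM to 211, 193 and 215 CPM (log2 fold change 0.45 ± 0.048, edgeR adjusted p = 5.77e-11). In MOLM-13 it fell from 111, 115 and 104 CPM to 86.1, 82.2 and 75.8 CPM (log2 fold change -0.43 ± 0.057, edgeR adjusted p = 1.1e-10). The groups did not overlap in either line, and the interaction term was -0.93 ± 0.075 (edgeR adjusted p = 2.63e-18), close to that of SLC1A5. The ratio of SLC1A4 to SLC1A5 counts was higher with selinexor in both lines, at 0.361 ± 0.014 (SD, n = 3) and then 0.659 ± 0.040 in OCI-AML2, and 0.284 ± 0.018 and then 0.521 ± 0.045 in MOLM-13. SLC1A5 shares 780 exonic bases with the antisense transcript AC008622.2.

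The sodium-coupled pair SLC38A1 and SLC38A2 moved apart in both lines. SLC38A1 (SNAT1, chr12:46183063-46270017, minus strand) fell from 213, 201 and 204 CPM to 102, 101 and 97.6 CPM in OCI-AML2 (log2 fold change -1.08 ± 0.048, edgeR adjusted p = 3.09e-23), the largest fall of a member in that line. In MOLM-13 it fell from 125, 134 and 123 CPM to 77.6, 74.5 and 78.1 CPM (log2 fold change -0.73 ± 0.055, edgeR adjusted p = 2.17e-22). The fall was larger in OCI-AML2, with an interaction term of 0.31 ± 0.073 (edgeR adjusted p = 0.0005).

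SLC38A2 (SNAT2, chr12:46358189-46372867, minus strand), the member of this pair known to be induced when amino acids are scarce, rose from 262, 251 and 267 CPM to 327, 358 and 371 CPM in OCI-AML2 (log2 fold change 0.39 ± 0.043, edgeR adjusted p = 1.68e-10). MOLM-13 went from 147, 149.5 and 143 CPM to 161, 161 and 180.4 CPM (log2 fold change 0.20 ± 0.047, edgeR adjusted p = 0.000142). Neither gene had overlapping groups in either line. The smaller rise in MOLM-13 (interaction term -0.25 ± 0.064, edgeR adjusted p = 0.00172) lost its call without OCI-AML2 vehicle library 1 (-0.16, adjusted p = 0.0746) or 2 (-0.13, adjusted p = 0.115), or without MOLM-13 vehicle library 2 (-0.14, adjusted p = 0.137). Per kilobase of merged exons, SLC38A2 made up 65.7% ± 0.74 (SD, n = 3) of the pair with vehicle and 84.2% ± 1.1 with selinexor in OCI-AML2, and 63.6% ± 0.68 and 76.8% ± 0.94 in MOLM-13.

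SLC7A1 (CAT1, chr13:29509410-29595688, minus strand), the main importer of arginine in many cells, fell by the same fold in both lines. OCI-AML2 had 186, 193 and 185 CPM with vehicle and 134, 124 and 128 CPM with selinexor, and MOLM-13 had 252, 259 and 265 CPM and then 175, 170.3 and 170.1 CPM. Neither pair of groups overlapped. The log2 fold changes were -0.59 ± 0.047 (edgeR adjusted p = 1.19e-14) and -0.59 ± 0.041 (edgeR adjusted p = 2.33e-24), and the interaction term of the fit over 12 libraries was -0.04 with a 95% interval of -0.17 to 0.08 (edgeR adjusted p = 0.641). Together with SLC43A2 it was one of the 2 members with a higher vehicle level in MOLM-13 (log2 difference 0.46 ± 0.043, edgeR adjusted p = 6.51e-17).

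**Figure D3:**
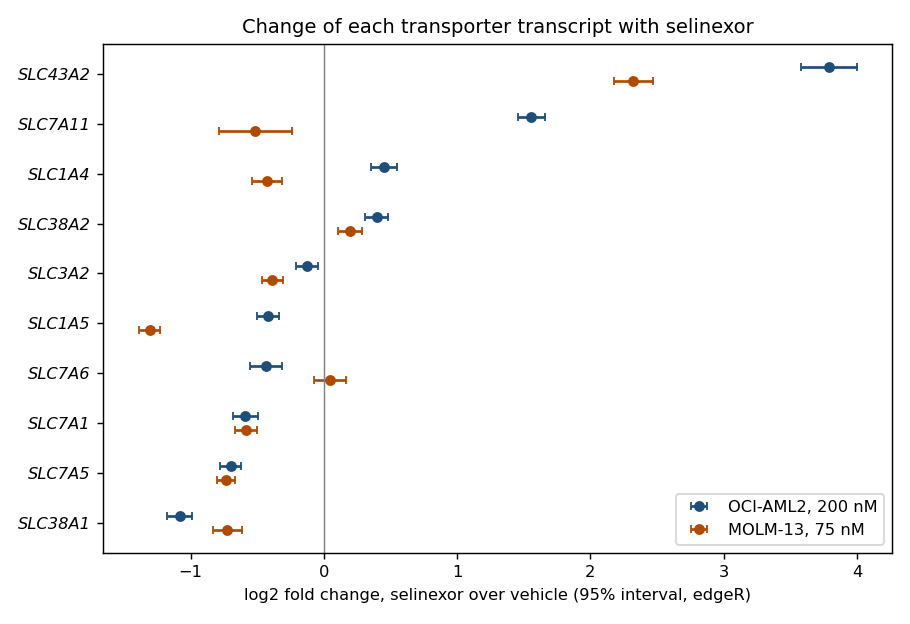
The log2 fold change of selinexor over vehicle for each transporter, 1 point per line with its 95% interval from the edgeR fit and a line at 0 for no change. SLC7A11 and SLC1A4 lie on opposite sides of 0 in the 2 lines, and the interval of SLC7A6 in MOLM-13 includes 0.

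Across the lines, 9 members were called in both and 7 of these went the same way: SLC7A5, SLC3A2, SLC1A5, SLC38A1 and SLC7A1 fell in both, and SLC38A2 and SLC43A2 rose in both. Of the 11202 genes tested in both lines, 44.7% were called in the same direction. The remaining pair, SLC7A11 and SLC1A4, were called in opposite directions, as were 2.86% of genes (320). The response differed between the lines, by the interaction term, for 8 of the 10 members, 6 with the MOLM-13 change lower and 2 with it higher. Among 12530 genes 30.1% passed, 19.0% lower and 11.1% higher. That background moved: the 1388 higher calls became 2084 without OCI-AML2 vehicle library 2, the 2380 lower calls became 1542 without OCI-AML2 vehicle library 1 and 1450 without MOLM-13 vehicle library 2, and upper-quartile scaling gave 1828 higher and 1890 lower. SLC7A5 and SLC7A1 were the 2 that did not pass, and the sign of their small difference turned when some single libraries were left out. With vehicle, 6 members were lower in MOLM-13, 2 were higher, and SLC7A6 and SLC1A5 did not pass, against 71.2% of genes called (36.2% lower and 35.0% higher). Summed over the 10 genes, the level went in OCI-AML2 from 2556 ± 15 to 2352 ± 26 CPM (SD, n = 3), in MOLM-13 from 1971 ± 27 to 1391 ± 18 CPM, and no selinexor library reached its vehicle group. SLC7A5 contributed the largest part of each sum.

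**Figure D4:**
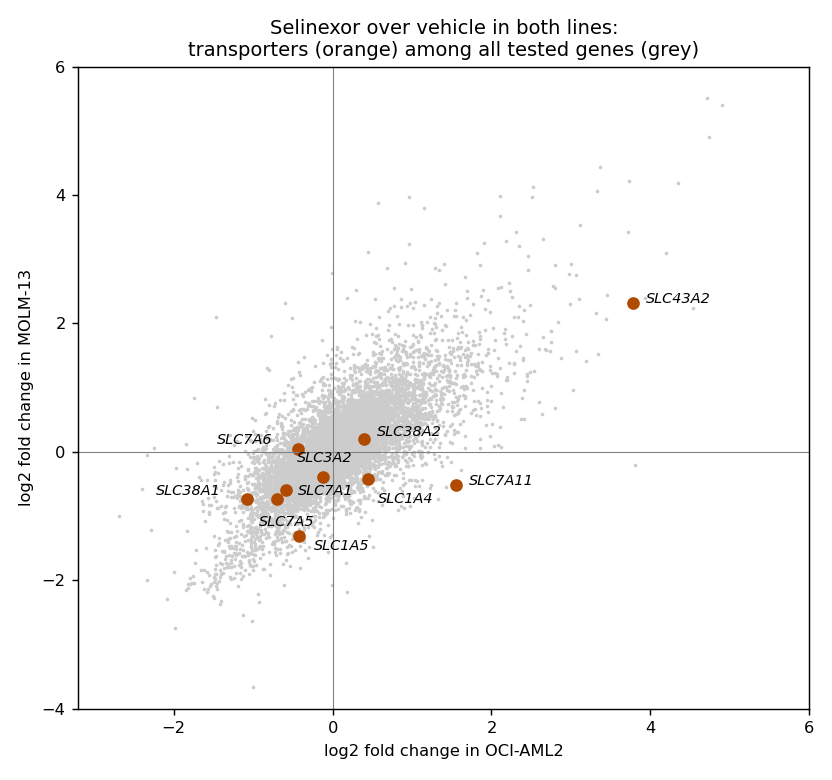
Log2 fold change of selinexor over vehicle in OCI-AML2 (horizontal) and MOLM-13 (vertical), with 11201 genes tested in both lines in grey (1 lies beyond the axes) and the 10 transporters in orange. SLC43A2 lies far to the upper right, and SLC7A11 and SLC1A4 fall in the lower right quadrant.

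By level per kilobase of merged exons, SLC7A5, SLC1A5 and SLC3A2 ranked highest in that order in all 4 groups. In OCI-AML2 with vehicle they stood at 181 ± 3.5, 122 ± 1.6 and 57.9 ± 1.6 CPM per kilobase (SD, n = 3), SLC38A2 followed at 39.4 ± 1.3, and SLC43A2 was lowest at 0.476 ± 0.072. The neighbours SLC1A4 (21.1 ± 1.0) and SLC38A1 (20.6 ± 0.64) did not differ beyond their spread. With selinexor in this line SLC3A2 (54.7 ± 1.9) and SLC38A2 (53.3 ± 3.4) were within their spread of each other, as were SLC1A4 (29.7 ± 1.7) and SLC7A11 (29.02 ± 1.3), and SLC43A2 was still lowest at 6.85 ± 0.41, below SLC7A6 at 9.31 ± 0.72, which was within its spread of SLC38A1. In MOLM-13 with vehicle the pairs of neighbours SLC7A5 (119.7 ± 0.18) and SLC1A5 (117 ± 3.2), and SLC38A1 (12.7 ± 0.61) and SLC7A6 (11.9 ± 1.0), did not differ beyond their spread. SLC7A11 was lowest there, at 1.74 ± 0.31 with vehicle and 1.22 ± 0.21 with selinexor, where SLC43A2 stood at 10.2 ± 0.15, above SLC38A1 at 7.66 ± 0.20. With principal transcript lengths, chosen after the data were seen, SLC3A2 ranked first in both selinexor groups and SLC1A5 first in MOLM-13 with vehicle.

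The genes whose pair of fold changes lay nearest to SLC43A2, the member that rose most, were PTAFR (3.46 in OCI-AML2 and 2.45 in MOLM-13 on the log2 scale), SDSL (3.11 and 2.38) and ALDH2 (4.54 and 2.25), out of 10055 genes compared over 2 lines. Nearest to SLC38A1, the member that fell most on average over the lines, were NEDD4L (-1.08 and -0.70), LOC102724159 (-1.09 and -0.75) and PNPT1 (-1.05 and -0.74). NEDD4L encodes a ubiquitin ligase that acts on membrane transporters. The measure is the distance between pairs of log2 fold changes, 0.352 for PTAFR and 0.0259 for NEDD4L.

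Other transporters of amino acids did not share one direction. Of 27 further plasma membrane carriers, 7 could be tested in each line, and 2 rose and 3 fell in each (median log2 fold change 0.09 in OCI-AML2 and -0.08 in MOLM-13). Of all genes tested, 31.3% rose in OCI-AML2 and 31.8% in MOLM-13, and 31.8% fell in each line. In OCI-AML2 4 of these carriers rose with upper-quartile scaling or in the joint fit. SLC38A5, a sodium-coupled glutamine transporter, fell in both (-0.50 ± 0.061, edgeR adjusted p = 1.43e-09; -0.67 ± 0.059, edgeR adjusted p = 1.04e-18). SLC3A1, the other heavy chain, rose in both (0.79 ± 0.14 and 1.12 ± 0.11) from 8.51 and 13.3 CPM. SLC7A2, the cationic relative of SLC7A1, had 68.5 CPM in MOLM-13 and 3.69 CPM in OCI-AML2 with vehicle, and fell in both lines (-0.30 ± 0.067 and -0.76 ± 0.27 respectively). SLC43A1, the closest relative of SLC43A2, passed the test in neither line, with 81.7 and 89.2 CPM in OCI-AML2 and 68.8 and 65.4 CPM in MOLM-13. Its interaction term was called, with the MOLM-13 change lower, and its vehicle level was lower in MOLM-13. With DESeq2 size factors, upper-quartile scaling or DESeq2, no gene of this list kept a lower interaction call. None did without OCI-AML2 vehicle library 1, 2 or 3, OCI-AML2 selinexor library 1 or MOLM-13 vehicle library 2 either. SLC43A1 was singled out after its values were seen.

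On the lysosome, 9 carriers were tested: 2 rose and 1 fell in OCI-AML2, and 4 rose and 3 fell in MOLM-13 (medians 0.11 and 0.18). Beside them, 31.3% of all genes rose in OCI-AML2 and 31.8% in MOLM-13, and 31.8% fell in each line. The rises in OCI-AML2 numbered 6 with upper-quartile scaling and 5 in the joint fit, while the single fall there was not called without vehicle library 1 or selinexor library 2. The falls in MOLM-13 numbered 1 with upper-quartile scaling, with DESeq2 and without vehicle library 2 or selinexor library 2. PQLC2, a lysosomal exporter of cationic amino acids, rose by 0.59 ± 0.062 in OCI-AML2 and 0.30 ± 0.081 in MOLM-13, and SLC15A4, which carries histidine and peptides, by 0.39 ± 0.095 and 0.63 ± 0.085. SLC38A9, the lysosomal arginine sensor of mTORC1, rose in MOLM-13 (0.64 ± 0.10) and had 0.24 ± 0.12 in OCI-AML2, where it did not pass. SLC36A1 went the other way in MOLM-13 (-0.40 ± 0.096, edgeR adjusted p = 0.000133) and did not pass in OCI-AML2 (0.11 ± 0.062, edgeR adjusted p = 0.136). The other falls called were those of SLC15A3 and SLC36A4 in MOLM-13 and SLC38A7 in OCI-AML2. Among mitochondrial carriers, 8 of 11 fell and 1 rose in OCI-AML2, and 6 of 11 fell and 2 rose in MOLM-13 (medians -0.24 and -0.19), beside 31.8% of all genes that fell in each line. The MOLM-13 rises numbered 1 with DESeq2 and without vehicle library 1, selinexor library 1 or selinexor library 2. SFXN1, the mitochondrial serine carrier, fell in both (-0.68 ± 0.050 and -0.83 ± 0.062), as did SLC25A44, the carrier of branched-chain amino acids (-0.95 ± 0.089 and -0.27 ± 0.077), while SFXN3 fell in OCI-AML2 (-0.19 ± 0.060) and rose in MOLM-13 (0.58 ± 0.059).

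Genes of the amino acid response, through which the kinase GCN2 and ATF4 raise transporter transcription, fell more often than they rose in MOLM-13. In OCI-AML2 1 of 11 tested rose and 4 fell, and in MOLM-13 2 of 13 rose and 9 fell (medians -0.14 and -0.41). Over all genes, 31.8% fell in each line, and the OCI-AML2 falls of this list were near that share. In OCI-AML2 the rises numbered 4 with upper-quartile scaling or in the joint fit, as many as the falls in the reported fit, and 2 without vehicle library 2 or 3. The MOLM-13 rises numbered 1 without vehicle library 1 or selinexor library 1. ATF4 mRNA itself fell in both lines, with log2 fold changes of -0.62 ± 0.040 in OCI-AML2 (edgeR adjusted p = 9.67e-18) and -0.43 ± 0.034 in MOLM-13 (edgeR adjusted p = 6.74e-21). TRIB3, a target of ATF4, fell in both (-0.43 ± 0.049 and -0.73 ± 0.091), and STC2 fell in MOLM-13 (-1.77 ± 0.14), where it had 164 to 206 counts with vehicle, beside at most 1 count in OCI-AML2. EIF2AK4, the gene of GCN2, was the exception that rose in OCI-AML2 (0.25 ± 0.067), and it rose in MOLM-13 as well (0.80 ± 0.10). It was named after its values were seen. ASNS, the textbook target of this response, had only 3 to 21 counts in any library. ATF4 is controlled largely through its translation, which these libraries did not measure.

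The amino acid branch of mTORC1, the growth kinase complex that reads leucine and arginine, went both ways: 12 rose and 8 fell of 31 in OCI-AML2, and 8 rose and 9 fell of 31 in MOLM-13 (medians 0.06 and 0.02). All genes went both ways too: 31.3% rose and 31.8% fell in OCI-AML2, and 31.8% rose and 31.8% fell in MOLM-13. Over the alternatives run, the OCI-AML2 rises of this list numbered 9 to 15 and its MOLM-13 falls 9 to 11. The sestrins SESN3 (1.66 ± 0.060 and 1.21 ± 0.15) and SESN1 (0.57 ± 0.082 and 0.75 ± 0.065) rose in both lines, as did the Rag GTPase gene RRAGD (1.26 ± 0.069 and 1.92 ± 0.37), which had 0.882 CPM in MOLM-13 with vehicle. ITFG2, a subunit of the KICSTOR complex, fell in both (-0.95 ± 0.076 and -0.73 ± 0.084).

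Enzymes that use the transported amino acids also split between the lines in places. In the cystine and glutathione list, 4 of 13 rose and 5 fell in OCI-AML2, and 0 rose and 8 fell of 13 in MOLM-13 (medians -0.03 and -0.17). That 0 of edgeR was 0 at an unadjusted p under 0.05, 0 by DESeq2 and 0 by limma voom, and 1 with upper-quartile scaling or without MOLM-13 selinexor library 3. Only 2 of the OCI-AML2 rises were called without vehicle library 2 or without selinexor library 3. The shares over all genes were 31.3% higher and 31.8% lower in OCI-AML2, and 31.8% each way in MOLM-13. GCLM, a subunit of the rate-limiting enzyme of glutathione synthesis, fell in OCI-AML2 (-1.66 ± 0.090), the line in which SLC7A11 rose, and in MOLM-13 (-0.44 ± 0.099). NFE2L2, which encodes the factor NRF2 that can induce both of these genes, did not pass in either line (-0.10 ± 0.069, edgeR adjusted p = 0.208; -0.06 ± 0.063, edgeR adjusted p = 0.416). TXNRD1, another gene of that kind, fell in both (-0.43 ± 0.042 and -0.30 ± 0.038). GPX1 was among the 4 genes of the list that rose in OCI-AML2 (0.61 ± 0.038). In MOLM-13 it did not pass (0.07 ± 0.035, edgeR adjusted p = 0.0953). NRF2 protein and its activity were not measured, and a part of NRF2 in these changes was not tested.

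Of the enzymes of glutamine, glutamate and asparagine, 3 rose and 7 fell of 11 in OCI-AML2, and 3 rose and 8 fell of 12 in MOLM-13 (medians -0.29 and -0.21), the last count being 5 with upper-quartile scaling. Among all genes 31.3% rose in OCI-AML2 and 31.8% in MOLM-13, so the rises of this list were near those shares. The share of all genes that fell was 31.8% in each line. GOT2, the mitochondrial aspartate aminotransferase, fell in both (-1.16 ± 0.059 and -0.54 ± 0.062), and CAD, which starts pyrimidine synthesis from glutamine, rose in both (0.41 ± 0.052 and 0.74 ± 0.042). GPT2, an alanine aminotransferase, fell in MOLM-13 (-1.29 ± 0.058) and stood at 69.7 and 69.3 CPM in OCI-AML2 (edgeR interaction term -1.33 ± 0.085, adjusted p = 5.57e-24). Branched-chain and arginine enzymes had 3 rises and 4 falls of 13 in OCI-AML2 and 2 rises and 6 falls of 12 in MOLM-13 (medians 0.01 and -0.20). These counts stand beside the same shares of all genes, and the OCI-AML2 falls were near theirs. Over the alternatives run, the OCI-AML2 rises numbered 2 to 4 and the MOLM-13 falls 4 to 7. BCAT1, which transaminates leucine, fell in both (-1.13 ± 0.056 and -0.59 ± 0.044). ASS1, which makes argininosuccinate on the way to arginine, rose in OCI-AML2 (0.70 ± 0.057) and fell in MOLM-13 (-0.76 ± 0.036; edgeR interaction term -1.50 ± 0.065, adjusted p = 4.1e-35).

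Genes for the turnover of transporters at the membrane gave 6 rises and 4 falls of 10 in OCI-AML2 and 5 rises and 3 falls of 10 in MOLM-13 (medians 0.32 and 0.18). Over all genes the rises were 31.3% and 31.8%, and the falls were 31.8% in each line. ARRDC3, an arrestin-like adaptor for ubiquitin ligases, had 3.94 CPM with vehicle and 103 CPM with selinexor in the first line and 1.74 and 79.98 CPM in the second, the largest rise in these lists, and NEDD4, one of those ligases, fell in both (-0.70 ± 0.10 and -1.16 ± 0.17). Levels of the transporter proteins and their rates of uptake were not measured, so the values here concern mRNA alone.

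**Figure D5:**
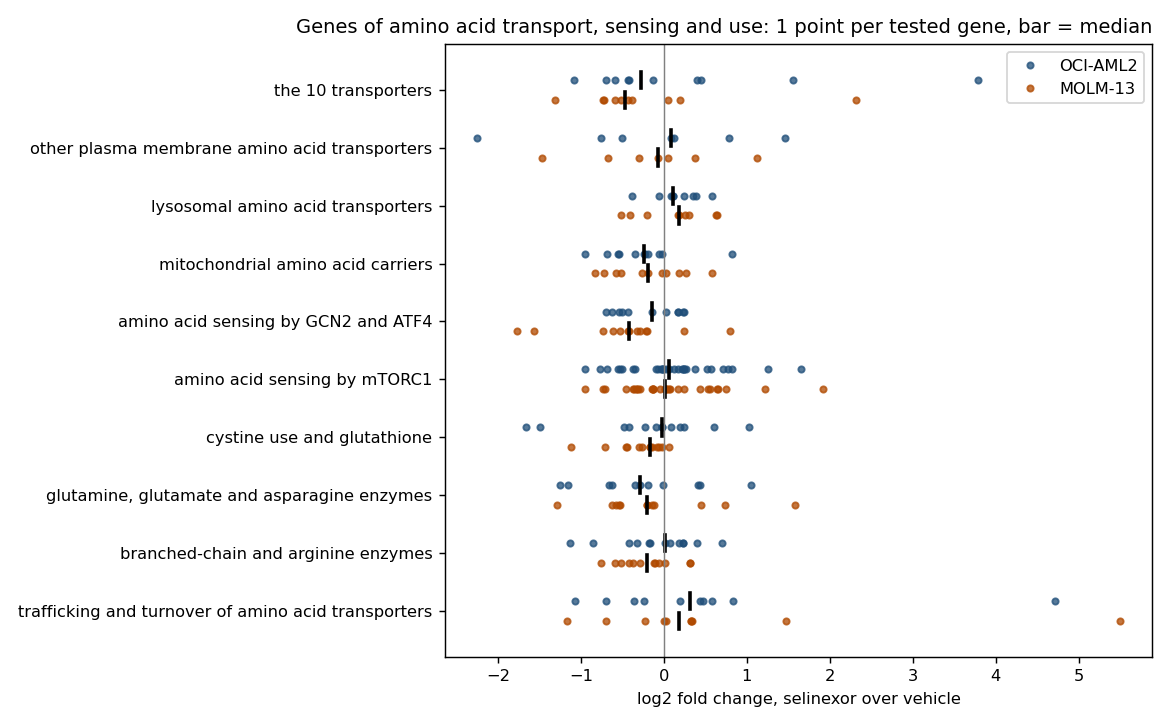
Log2 fold change of selinexor over vehicle for every tested gene of the transporter set and of 9 lists of amino acid transport, sensing and use, 1 point per gene, OCI-AML2 in blue and MOLM-13 in orange, with a black bar at the median. The transporter medians are -0.27 and -0.47, and most lists have points on both sides of 0.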

How the data were processed

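Read counts per gene for 12 libraries, 1 table per line, were used as the authors deposited them. The submitters' processing notes name STAR, hg38, R 3.6.1 and DESeq2. Libraries were poly(A)-selected and kept no strand, per the labels' protocols. Which tool and annotation counted the reads is not given in the sources used here. Table names give the line by its initial and column names the treatment, with no replicate number, so libraries are numbered in column order. For MOLM-13, the log2 fold changes, standard errors and adjusted p-values (some given only as a bound) of the authors' deposited table were used for comparison.

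Each line was fitted with edgeR 4.0.16 in R 4.3.3 (glmQLFit with robust estimates, glmQLFTest, TMM, filterByExpr with a minimum count of 10 and a minimum total of 15). A fit of the 12 libraries gave the interaction and vehicle terms. It had its own scaling, so an interaction term is not exactly the difference of the changes in the separate fits. The common biological coefficient of variation was 0.0478 in OCI-AML2 and 0.0366 in MOLM-13. Alternatives were DESeq2 1.42.0, limma voom 3.58.1, scaling by DESeq2 size factors or by the upper quartile, keeping genes of low counts, the joint fit and leaving out each library. On simulated counts, 2-fold changes were recovered for 95.9% of changed genes in OCI-AML2 (11810 genes), 91.9% in MOLM-13 (11477 genes) and 87.1% for the interaction (12203 genes). For 1.5-fold changes the shares were 86.7%, 79.4% and 72.3%. The simulation changed far fewer genes than were called in the data and gave all genes the same dispersion. Its shares therefore need not hold for the data.

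Gene positions and lengths are from GENCODE release 29 (GRCh38) and promoters from RefSeq (GRCh38.p14). Named genes were the 10 members, ATF4, NFE2L2 and ASNS, up to 4 genes of each of 9 lists by smallest p with a mean of at least 5 CPM, and the 3 genes nearest to the members with the largest rise and fall. Members and lists were chosen with earlier results of these data known. Deposited normalized tables were not used. One list of cell type markers is not reported here.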

Additional observations from a re-analysis of the deposited data

Results flagged for a closer look

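The change with selinexor differed between MOLM-13 and OCI-AML2 for 8 of the 10 transporters by the interaction term of the edgeR fit over 12 libraries (adjusted p under 0.05 over 12530 genes), and this difference is why they are given here. Values are the MOLM-13 change minus the OCI-AML2 change on the log2 scale, both within that fit. They are not exactly the differences of the changes from the separate fits. Over all genes 30.1% passed, 19.0% lower and 11.1% higher, and the median interaction term was -0.04. Those shares moved with the libraries and scaling used. The largest was that of SLC7A11, the cystine exchanger, at -2.12. SLC43A2 followed at -1.51, a smaller rise in MOLM-13 than in OCI-AML2. SLC1A5 had -0.939, a deeper fall in MOLM-13, and SLC1A4 had -0.928, with a change of direction. SLC3A2 had -0.309 and SLC38A2 had -0.247, the latter lost when any of 3 libraries was left out. SLC38A1 had 0.308, a deeper fall in OCI-AML2, and SLC7A6 had 0.43, a fall in OCI-AML2 beside a change in MOLM-13 that did not pass the test. The doses were 200 nM in OCI-AML2 and 75 nM in MOLM-13, so line and dose cannot be told apart.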

How the results depend on the processing

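No paired analysis was possible because the columns of the count tables carry no replicate numbers. Under every alternative run, the members called were 4 higher and 5 to 6 lower in OCI-AML2, 2 higher and 7 lower in MOLM-13, 2 higher and 5 to 6 lower for the interaction, and 2 higher and 6 to 7 lower with vehicle. The calls lost were the fall of SLC3A2 in OCI-AML2 and the interaction of SLC38A2, each in 3 alternatives, and the vehicle difference of SLC1A5 passed in 4. Over all genes, the interaction called 1388 higher and 2380 lower, and 1228 to 2084 and 1450 to 2236 when single libraries were left out. Upper-quartile scaling gave 1828 and 1890. The higher share of the calls was 36.8% in the reported fit and 49.2% with upper-quartile scaling, and these shares do not cover the fits without 1 library. Signs turned only for differences that did not pass the test. The interaction term of SLC7A1 was 0.0137 with upper-quartile scaling, and ran from -0.0707 to 0.0591 over the fits without 1 library, above 0 without any 1 of the 3 OCI-AML2 vehicle libraries or MOLM-13 vehicle library 2. That of SLC7A5 ran from -0.10 to 0.0216, above 0 without OCI-AML2 vehicle library 1 or 3 or MOLM-13 vehicle library 2. For SLC7A6, the vehicle difference ran from -0.108 to 0.00898 and the MOLM-13 change from -0.00588 to 0.119, with the sign turned without MOLM-13 vehicle library 1 and without its selinexor library 1 respectively. The cause was not tested. Depth limits SLC43A2 in untreated OCI-AML2, at 42 to 71 counts, and SLC7A11 in MOLM-13. Levels per kilobase moved with the length chosen.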
